A study of Homo sapiens with 6 samples.

Results

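The genes described here set the passage from G1 into S phase: the cyclins CCND1, CCND3, CCNE1, CCNE2 and CCNA2, the transcription factors E2F1, E2F3 and E2F8, the retinoblastoma gene RB1 and CDKN1B, which encodes the inhibitor p27. They were taken by gene symbol from the annotation of the probe sets. All 10 were measured, out of 19775 genes with a probe set of their own, and they were covered by 18 probe sets, of which 15 were above the filter described below. The cells were variants of HT-29, a cell line from a human colon adenocarcinoma. BR100 and BR200 were each represented by 2 arrays and so was the variant labelled wild type, with 1 array per labelling kit: the 3' IVT Express kit from 100 ng of total RNA and the One-Cycle kit from 3 ug. According to the labels, bortezomib, a proteasome inhibitor, was raised from 20 to 300 nM over 7 months, and clonal isolates were then taken by limiting dilution in 100 or 300 nM drug during 4 further months. That text stands on all 6 arrays, wild type included, and gives neither the cloning dose of BR200 nor whether drug was present at harvest. Each resistant variant is thus, as far as the labels say, a clonal isolate, and no label tells whether both arrays of a variant began from different cultures or RNA, so the p-values measure only the spread between these arrays, which may be technical.

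In G1, mitogens raise the D-type cyclins, which activate CDK4 and CDK6 to phosphorylate RB. RB then releases E2F factors, which switch on cyclin E and the replication genes, and cyclin E with CDK2 and later cyclin A2 drive S phase. The proteasome is part of this circuit, because cyclin E is marked for destruction through FBXW7 and p27 through SKP2. E2F8 is an atypical E2F that represses E2F targets, and p27 blocks cyclin E with CDK2.

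Values are log2 expression as deposited, and every level is given for the Express array first and the One-Cycle array second. In the 3 comparisons, genes were tested with limma over all 6 arrays with the kit as a block, and a gene was called at a two-sided Benjamini-Hochberg adjusted p under 0.05 over 10370 genes with at least 2 arrays at a log2 value of 4. All 10 genes passed that filter. The arrays had 10063 to 10193 genes at or above 4. For ACTB, the level of the 3' control probe set minus that of the 5' one, a sign of RNA integrity and labelling, was 3.03 and 1.86 in BR100, 3.24 and 1.76 in BR200, and 4.22 and 2.99 in wild type (log2). That gap moves with the comparisons against wild type, and its part in the results was not tested. Of 11 colon epithelium markers 8 passed the filter, among them EPCAM at 14.6 to 15.0, whereas CDX2 and CDH17 were at the lowest value of 2.23 on all arrays. The summed log2 level of those 11 markers was 106 to 107 in BR100, 107 to 108 in BR200 and 116 to 117 in wild type, and its part in the results was likewise not tested. Most of that gap lay in LGALS4, which averaged 7.27 in BR100, 7.70 in BR200 and 13.3 in wild type, and in VIL1, which averaged 6.52, 6.62 and 8.37, while KRT8, KRT18 and KRT19 moved by under 0.2. Of 6 blood cell markers with a probe set 2 passed, LYZ at 14.3 to 14.8 and CD14 at 5.33 to 6.76, while PTPRC, CD3E and MS4A1 were at 2.23 on all arrays. COL1A1 was the 1 of 7 fibroblast markers that passed, and 0 of 5 endothelial markers did.

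Among the 10 genes, the cyclin E genes differed most between the resistant variants and wild type. In BR100, 5 of the 10 genes rose and none fell (CCNE1, CCNE2, CCNA2, E2F3 and E2F8), against a background of 68.5% of all genes called, 36.7% higher and 31.8% lower. In BR200, 6 rose and 1 fell, against 66.5% called, 35.4% higher and 31.2% lower. Both counts include CCNE2, which passed the filter through the resistant arrays. Taken in either direction, these shares of called members are therefore near the background, and what sets single members apart is the size of their change. The median log2 change was 0.47 in BR100 and 0.71 in BR200 over the 10 genes, and 0.04 in both over all genes. Both comparisons share the wild type arrays. These are bulk measurements, in which a change in the share of cells in a phase of the cycle and a change in RNA per cell cannot be told apart.

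**Figure D1:**
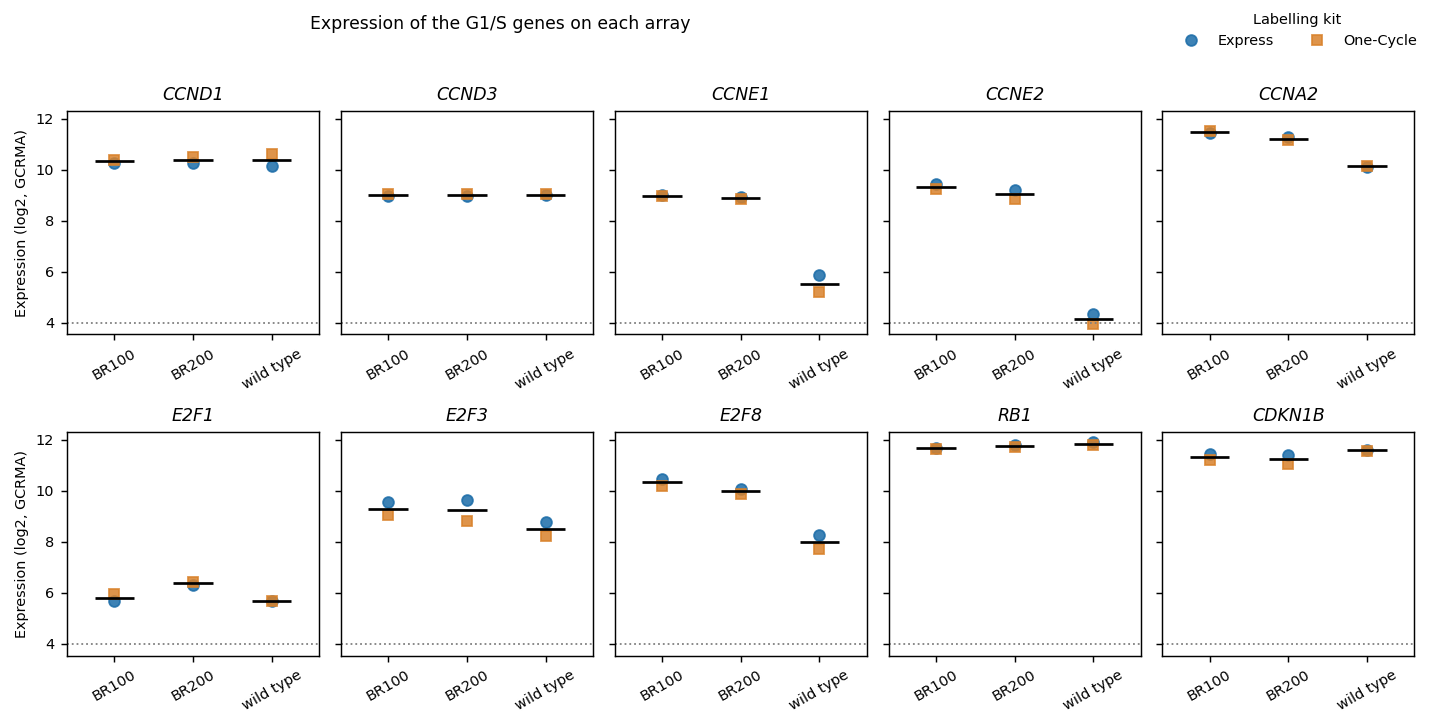
Log2 expression (y axis) of the 10 G1/S genes in BR100, BR200 and wild type (x axis), with circles for the Express array, squares for the One-Cycle array, a bar for the mean of the 2 arrays and a dotted line at the filter value of 4. CCNE1 lay between 8.84 and 9.00 on the 4 resistant arrays and at 5.85 and 5.22 in wild type, whereas CCND3 lay between 8.96 and 9.06 on all 6.

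CCNE1, which encodes cyclin E1, read 9.00 and 8.98 in BR100, 8.93 and 8.84 in BR200, and 5.85 and 5.22 in wild type. The resistant arrays were all above the wild type arrays, with a gap of more than the difference between kits in wild type. The mean was 8.99 ± 0.02 in BR100 and 5.54 ± 0.45 in wild type (SD, n = 2 each), a 10.9-fold difference (log2 change 3.45, SE 0.174, limma adjusted p = 0.000261). BR200 averaged 8.88 ± 0.06, against the same 5.54 ± 0.45 in wild type (SD, n = 2 each), 10.2-fold higher (log2 change 3.35, SE 0.174, limma adjusted p = 0.000307). Among all genes this change ranked 62 from the highest in BR100 and 76 in BR200. The difference from wild type was larger on the One-Cycle arrays (3.76 in BR100 and 3.62 in BR200) than on the Express arrays (3.15 and 3.07). A second probe set of CCNE1, 242105_at, sat at 2.23 on all 6 arrays. Averaging it with the first, 213523_at, lowered the changes to 1.73 and 1.67.

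CCNE2, which encodes cyclin E2, read 9.44 and 9.24 in BR100, 9.22 and 8.84 in BR200, and 4.34 and 3.94 in wild type. Wild type thus lay around the filter value of 4, with 1 array under it, far below all resistant arrays. CCNE2 passed the filter through the resistant arrays, so the size of its difference describes these values and gives no exact fold. Its test against wild type is likewise not read. BR100 averaged 9.34 ± 0.14 and wild type 4.14 ± 0.28 (SD, n = 2 each), with a log2 difference of 5.20. In BR200 the mean was 9.03 ± 0.27 and the difference 4.90. The second CCNE2 probe set, 211814_s_at, read 3.79 and 6.08 in BR100, 3.12 and 5.55 in BR200, and 2.23 on both wild type arrays. It was higher on all resistant arrays, but its kits were far apart. Since 2.23 is the lowest value of the files and the probe set passed the filter through the resistant One-Cycle arrays, its size of change and its test are not read.

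CCNA2, the S phase cyclin that takes over CDK2 from cyclin E, read 11.44 and 11.53 in BR100, 11.27 and 11.16 in BR200, and 10.13 and 10.15 in wild type. The 3 variants did not overlap, with BR100 the highest and wild type the lowest. It rose 2.55-fold in BR100 (log2 change 1.35, SE 0.0795, limma adjusted p = 0.000359) and 2.11-fold in BR200 (log2 change 1.08, limma adjusted p = 0.000671). A second probe set, 203418_at, gave changes of 1.55 in BR100 and 1.24 in BR200, also with no overlap between the variants.

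The D cyclins, which carry the mitogen signal at the top of the circuit, did not pass in either variant. CCND3 read 8.99 and 9.05 in BR100, 8.96 and 9.05 in BR200, and 9.00 and 9.06 in wild type. The groups overlapped, and the 95% interval of the log2 difference was −0.18 to 0.16 in BR100 and −0.20 to 0.15 in BR200. CCND1 read 10.29 and 10.39 in BR100, 10.26 and 10.52 in BR200, and 10.15 and 10.61 in wild type on 208712_at. Its interval was −0.33 to 0.24 in BR100 and −0.28 to 0.29 in BR200. The other CCND1 probe set, 208711_s_at, differed by kit rather than by variant: Express exceeded One-Cycle by 1.39 on it (SE 0.122, adjusted p = 0.0061 over probe sets), and the differences from wild type were −0.01 in BR100 and −0.10 in BR200.

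**Figure D2:**
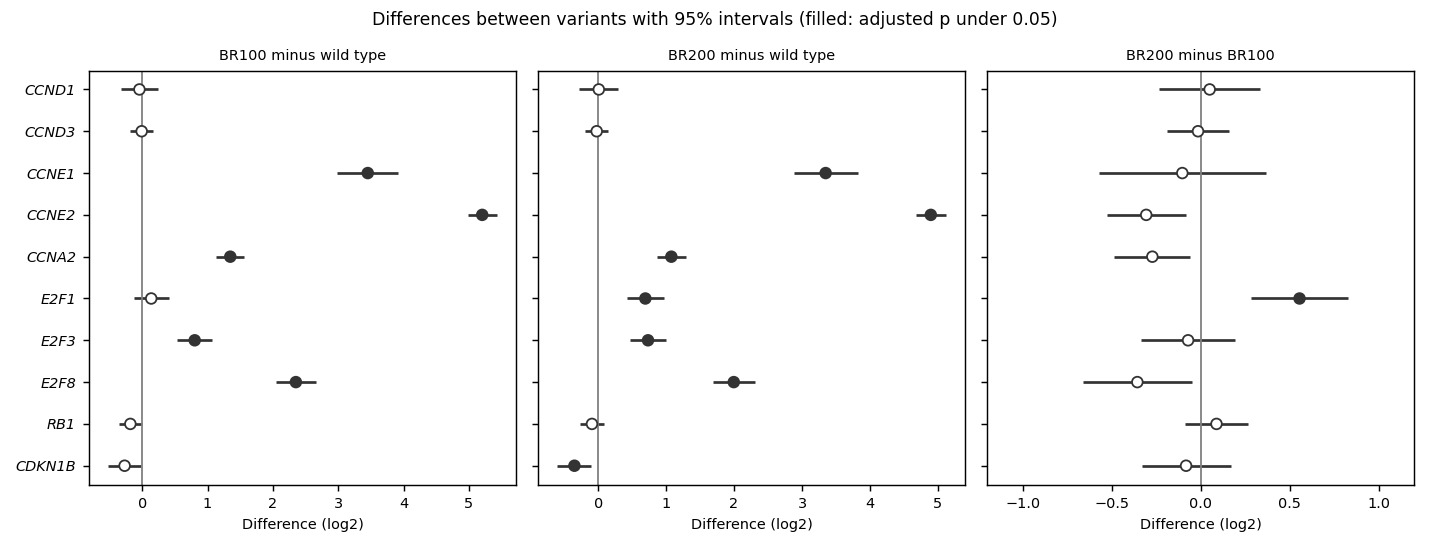
Log2 differences (x axis) of the 10 genes in the 3 comparisons, with limma's 95% intervals as lines and filled points for adjusted p under 0.05; the third panel has a narrower axis. CCNE2 at 5.20 and 4.90 and CCNE1 at 3.45 and 3.35 lie farthest from 0, and E2F1 at 0.55 is the filled point in the comparison of BR200 with BR100.

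The 3 E2F genes did not move alike. E2F8, the repressive atypical member, read 10.48 and 10.21 in BR100, 10.08 and 9.89 in BR200, and 8.27 and 7.71 in wild type, with no overlap between resistant and wild type arrays. Its rise was 5.10-fold in BR100 (log2 change 2.35, SE 0.114, limma adjusted p = 0.000238) and 3.99-fold in BR200 (log2 change 2.00, limma adjusted p = 0.000364). E2F3, an activator held by RB, read 9.57 and 9.04 in BR100, 9.65 and 8.82 in BR200, and 8.79 and 8.21 in wild type. Within each kit the resistant arrays were higher, by 0.78 and 0.83 in BR100 and by 0.86 and 0.61 in BR200. The gene rose by 0.80 (SE 0.0987, limma adjusted p = 0.00249) in BR100 and by 0.73 (adjusted p = 0.00352) in BR200, calls that were lost without the kit block (adjusted p = 0.156 and 0.194), and in BR200 also without the filter (adjusted p = 0.0507). Its probe sets responded to the kits in opposite directions, 203693_s_at being higher by 0.64 with Express and 203692_s_at lower by 1.06. Both rose in both variants (203692_s_at by 0.89 and 0.57), but on 203692_s_at the resistant arrays overlapped the wild type arrays.

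E2F1, an activator E2F bound by RB, read 5.66 and 5.96 in BR100, 6.30 and 6.44 in BR200, and 5.69 and 5.66 in wild type. BR200 was above both other variants on either kit, and BR100 overlapped wild type. The rise in BR200 was 1.62-fold (log2 change 0.69, SE 0.1, limma adjusted p = 0.00442), whereas BR100 was at 0.14 (95% interval −0.13 to 0.41, adjusted p = 0.277). The difference between the clones was tested directly and is given below. The other E2F1 probe set, 2028_s_at, did not reach the filter, with 2.23 on both wild type arrays and at most 2.89 elsewhere.

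RB1 encodes the protein that holds E2F factors in check. Its main probe set, 203132_at, read 11.70 and 11.65 in BR100, 11.79 and 11.73 in BR200, and 11.91 and 11.80 in wild type. The resistant arrays were lower without overlap, but the differences were small and did not pass: −0.18 in BR100 (limma adjusted p = 0.0658) and −0.09 in BR200 (95% interval −0.27 to 0.08, adjusted p = 0.272). The BR100 value passed under 4 of 14 alternatives. The second RB1 probe set, 211540_s_at, pointed the other way, with differences of 0.19 in BR100 and 0.59 in BR200 (adjusted p = 0.405 and 0.0511 over probe sets), at levels of 4.46 to 5.64 near the filter. RB1 had no direction that both probe sets shared.

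CDKN1B, the p27 gene, read 11.44 and 11.20 in BR100, 11.41 and 11.07 in BR200, and 11.62 and 11.56 in wild type. All resistant arrays were below both wild type arrays. The fall passed in BR200 (log2 change −0.35, SE 0.0928, limma adjusted p = 0.0277) and not in BR100 (−0.27, adjusted p = 0.0577). Neither side of the threshold was firm: the BR200 call was lost in 7 of 14 alternatives, with adjusted p up to 0.165, and BR100 gained a call in 6 of 14.

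**Figure D3:**
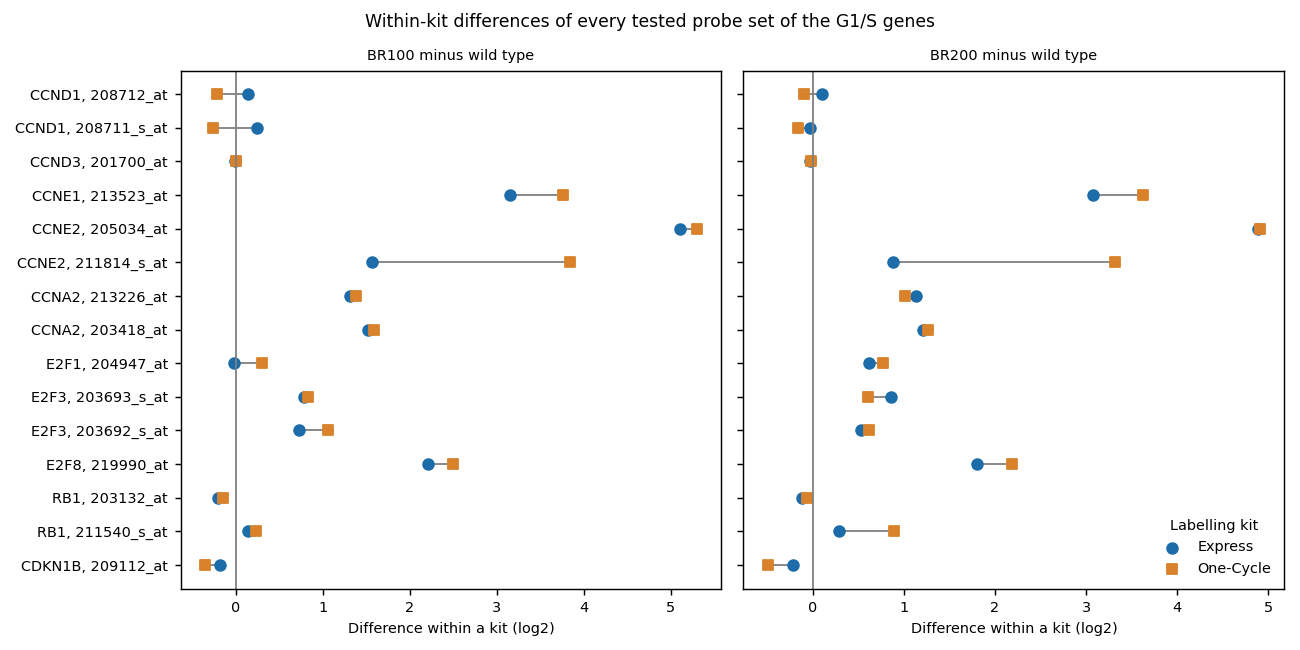
Difference from wild type within each kit (x axis, log2) for the 15 tested probe sets of the 10 genes (y axis), with circles for Express and squares for One-Cycle arrays, 1 array per variant and kit, in BR100 (left) and BR200 (right). The kits lie close together for CCNA2 and CCND3 and far apart for the second CCNE2 probe set, at 1.56 and 3.84 in BR100.

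Taken probe set by probe set, 8 of 15 rose in BR100 and none fell. The background was 61.4% of 22375 probe sets called, 30.2% higher and 31.2% lower. In BR200, 8 rose and 1 fell, against 57.4% called, 28.3% higher and 29.1% lower. The BR100 count includes both CCNE2 probe sets, the second with wild type at the lowest value, and the BR200 count includes the main one. Their tests against wild type are not read. Of the genes called against wild type, CCNA2 and E2F3 had a second probe set whose test is read, and it was called higher in both variants. For E2F3 its resistant arrays overlapped the wild type arrays. The second probe sets of CCNE1 and E2F1 were not tested, and E2F8 and CDKN1B had 1 probe set each. The labelling kit itself moved some of these genes: Express exceeded One-Cycle for E2F3 by 0.64 (adjusted p = 0.0103) and for CCNE2 by 0.33 (adjusted p = 0.0279), 2 of 10 genes against 34% of all genes called between the kits.

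BR200 was then set against BR100. Of the 10 genes 1 passed, against 10.6% of all genes called, 6.39% higher and 4.23% lower in BR200. E2F1 was higher in BR200, at 6.30 and 6.44, than in BR100, at 5.66 and 5.96 (log2 difference 0.55, SE 0.1, limma adjusted p = 0.0452), and the call was lost in 9 of 14 alternatives, among them each of the 6 that left out an array (adjusted p 0.0815 to 0.227). The genes that had risen most against wild type were lower in BR200 without passing: E2F8 at −0.36 (95% interval −0.66 to −0.05, adjusted p = 0.124), CCNE2 at −0.31 (−0.53 to −0.09, adjusted p = 0.09) and CCNA2 at −0.27 (−0.49 to −0.06, adjusted p = 0.107). CCNE1 was at −0.10 (−0.57 to 0.37). In the fit over probe sets limma called none of the 15 between the clones, with 6 at an unadjusted p under 0.05, against 5.98% of all probe sets called, 4.34% higher and 1.64% lower.

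Promoter sequences are printed for the genes whose values differ most in pattern: CCNE1 and CCNA2, which rose in both variants, E2F3, which rose less, and E2F1, which rose in BR200 alone by the tests above. RefSeq windows (GRCh38.p14) run from 250 bases before to 50 after the start of transcription, and 7 of the 10 genes had one. Capitals mark the E2F core, searched on both strands as any of TTCCCGC or else TTCGCGC or else TTGCCGC or else TTGGCGC, and the CHR element of cell cycle genes, searched on both strands as TTTGAA and as CTTGAA. The windows are written 5′ to 3′ on the strand of the gene, at chr19:29811741-29812040 (plus) for CCNE1, chr4:121823834-121824133 (minus) for CCNA2, chr20:33686336-33686635 (minus) for E2F1 and chr6:20401629-20401928 (plus) for E2F3.
CCNE1: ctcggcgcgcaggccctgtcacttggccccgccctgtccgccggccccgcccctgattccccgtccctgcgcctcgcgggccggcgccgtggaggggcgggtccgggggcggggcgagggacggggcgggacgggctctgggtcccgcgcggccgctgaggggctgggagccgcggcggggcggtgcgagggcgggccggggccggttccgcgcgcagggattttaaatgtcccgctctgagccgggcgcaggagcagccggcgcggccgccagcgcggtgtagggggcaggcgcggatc
CCNA2: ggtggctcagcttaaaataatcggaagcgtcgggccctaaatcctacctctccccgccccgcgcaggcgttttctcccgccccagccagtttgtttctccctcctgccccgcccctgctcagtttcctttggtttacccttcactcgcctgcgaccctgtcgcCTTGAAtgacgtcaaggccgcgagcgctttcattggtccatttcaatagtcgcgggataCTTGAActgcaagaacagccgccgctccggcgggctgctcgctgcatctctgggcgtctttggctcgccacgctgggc
E2F1: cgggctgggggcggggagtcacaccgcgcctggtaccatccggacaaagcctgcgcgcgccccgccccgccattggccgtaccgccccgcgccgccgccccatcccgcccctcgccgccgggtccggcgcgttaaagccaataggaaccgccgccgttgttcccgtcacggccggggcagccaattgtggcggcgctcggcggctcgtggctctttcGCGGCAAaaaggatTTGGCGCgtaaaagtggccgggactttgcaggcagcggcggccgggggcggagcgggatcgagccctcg
E2F3: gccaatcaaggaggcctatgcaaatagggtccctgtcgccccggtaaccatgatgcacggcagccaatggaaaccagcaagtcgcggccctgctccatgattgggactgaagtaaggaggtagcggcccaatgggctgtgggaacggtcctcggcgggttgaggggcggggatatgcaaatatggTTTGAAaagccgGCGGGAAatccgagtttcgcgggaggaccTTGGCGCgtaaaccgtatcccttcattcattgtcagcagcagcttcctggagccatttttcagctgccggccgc
The E2F1 window and the printed one of 2 E2F3 windows held 2 E2F cores each, and the other E2F3 window held 0. By window it was 2 of 10 for the members, or 20.0%, against 13.0% of all 35116 windows. By gene it was 2 of 7, or 28.6%, against 15.3% of 27305 genes with a window. Among textbook E2F targets outside the 10 genes it was 16 of 17 genes, or 94.1%; those genes are known as targets partly for such sites. The CHR letters stood at 2 places in CCNA2 and at 1 in E2F3, and 23.9% of all windows held them. Neither set of letters was in the CCNE1 window. A match is a description of letters and not a bound site.

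Other genes of the circuit were grouped by role. The kinase and cyclin list had 8 tested genes of 11, of which 5 rose and 1 fell in both variants (median 0.53 in BR100 and 0.44 in BR200). Over all genes 68.5% were called in BR100 and 66.5% in BR200, close to the share in this list. CDK2, the partner of cyclins E and A, averaged 9.76 ± 0.08 in BR100 and 9.73 ± 0.04 in BR200, against 7.71 ± 0.09 in wild type (SD, n = 2 each), log2 changes of 2.05 and 2.03 (limma adjusted p = 0.00017 and 0.0002). CDC25A, the phosphatase that activates CDK2, rose by 2.43 and 1.76, and MNAT1, an assembly factor of the CDK-activating kinase, by 1.26 and 1.30. CCNH, the cyclin of that kinase, fell by 0.43 and 0.45, with resistant and wild type arrays overlapping in both comparisons. The D cyclin partners moved less: CDK4 rose by 0.37 in BR100 (adjusted p = 0.022) and was at 0.17 in BR200 (adjusted p = 0.165), and CDK6 was at 0.17 and 0.27, passing in neither. CCND2 and CCNA1 were below the filter, and CDK3 had no probe set of its own.

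Most inhibitors of the CDKs fell. Of 5 tested genes outside the 10, 4 fell and none rose in BR100 (median −0.77) and in BR200 (median −1.07). Over all genes 68.5% were called in BR100 (31.8% lower) and 66.5% in BR200 (31.2% lower). With 5 genes, the share called is not clearly above that background. CDKN2B, which encodes the CDK4 and CDK6 inhibitor p15, averaged 8.19 ± 0.22 in BR100 and 8.68 ± 0.19 in BR200, against 10.52 ± 0.00 in wild type (SD, n = 2 each), and fell by 2.33 and 1.84. CDKN1A, the p21 gene, fell by 2.05 and 1.73 and CDKN1C, the p57 gene, by 0.77 and 1.07. CDKN2A, which encodes p16 and ARF, fell by 0.58 and 0.48. CDKN2D, the p19 gene, was at 0.01 and −0.02 with levels near the filter.

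The E2F, DP, pocket protein and DREAM list had 9 of 15 genes higher in BR100 with none lower (median 0.61), and 9 higher and 1 lower in BR200 (median 0.43). Over all genes 68.5% were called in BR100 (36.7% higher) and 66.5% in BR200 (35.4% higher). The share called in either direction in this list is thus near the background. MYBL2, an E2F target that joins the MuvB core in S phase, rose by 3.04 and 2.80. RBL1, the pocket protein p107, averaged 8.65 ± 0.28 in BR100, 8.69 ± 0.30 in BR200 and 5.91 ± 0.29 in wild type (SD, n = 2 each), rising by 2.74 and 2.78. RBL2, the pocket protein p130, was at −0.19 and −0.13 and passed in neither, so of the 3 pocket protein genes RBL1 was the one called. LIN52 of the MuvB core rose by 1.25 and 1.49 and the other atypical E2F, E2F7, by 1.11 and 1.03. E2F2, an activator, rose by 1.03 and 1.09, and E2F5 fell in BR200 by 0.33.

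The list for ubiquitin ligases that act on G1/S regulators had 14 genes, among them USP28, which encodes a deubiquitinase and not a ligase. In this list 7 were higher and 4 lower in BR100 (median 0.25) and 6 higher and 4 lower in BR200 (median −0.08). Over all genes 36.7% were higher and 31.8% lower in BR100, so these counts are near the background. SKP2, the receptor for p27, averaged 11.20 ± 0.23 in BR100, 10.82 ± 0.22 in BR200 and 8.80 ± 0.21 in wild type (SD, n = 2 each), log2 changes of 2.40 and 2.02. FBXW7, the receptor for cyclin E, fell by 0.40 and 0.35, with resistant and wild type arrays overlapping in both comparisons. FBXO5, an inhibitor of the anaphase-promoting complex, rose by 1.77 and 1.87 and RBX1, the RING subunit, by 1.24 and 1.26. FBXO4, an F-box protein, fell by 1.05 and 0.63 and RNF123, a subunit of a cytoplasmic ligase for p27, by 0.68 and 0.61.

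Textbook E2F target genes were higher almost throughout. All 19 tested genes rose in BR100 (median 2.99), and 18 rose in BR200 (median 2.84), where EZH2 was the exception at 0.12. Over all genes 36.7% were called higher in BR100 and 35.4% in BR200. MCM5 rose by 4.56 and 4.66 and TYMS by 4.42 and 4.34. ORC1 averaged 7.78 ± 0.33 in BR100, 7.48 ± 0.39 in BR200 and 3.31 ± 0.53 in wild type (SD, n = 2 each). It passed the filter through the resistant arrays, so neither the size of its rise nor its test is read. The counts of 19 and 18 include it. Leaving out probe sets with IDs ending in _x_at, _s_at or _a_at brought the count to 12 in both variants, with fewer genes tested. How many were tested there is not given here, so the lower count does not show that calls were lost. Of 10 mitogen inputs to the D cyclins, 4 were higher and 4 lower in BR100 (median −0.06) and 3 higher and 4 lower in BR200 (median 0.06), also near the background of 36.7% and 31.8% in BR100 and of 35.4% and 31.2% in BR200. JUN rose by 0.87 and 0.99, EGR1 fell by 1.15 and 1.28 and DUSP6 by 0.82 and 0.61. MYC rose by 0.62 in BR100 and was at 0.20 in BR200.

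**Figure D4:**
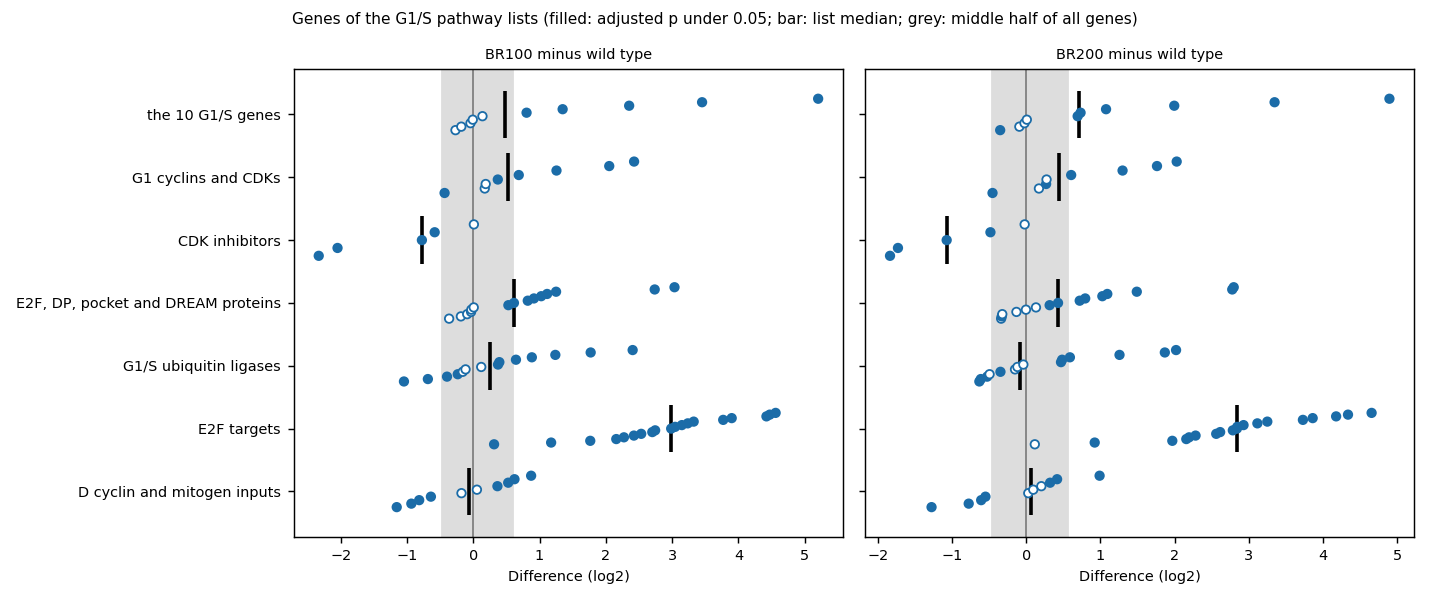
Log2 differences from wild type (x axis) of each tested gene in the 10 G1/S genes and 6 lists of the same circuit (y axis), filled where the adjusted p was under 0.05, with a bar at each list's median and grey between the lower and upper quartile of all 10370 genes. The E2F targets lie to the right, with medians of 2.99 and 2.84, and the CDK inhibitors to the left, with medians of −0.77 and −1.07.

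Between the clones, 6 genes of these lists passed. They were 1 of 8 tested in the kinase and cyclin list and 1 of 15 in the E2F list. The others were 2 of 14 in the ligase list, 1 of them USP28, and 2 of 10 mitogen inputs, with 0 of 5 CDK inhibitors and 0 of 19 E2F targets. Over all genes 10.6% were called. None of the lists' genes passed limma's test whichever array was left out (9 to 19 at an unadjusted p under 0.05), nor without the kit block (8) or without the filter (20). FOS, an immediate early gene, averaged 10.20 ± 0.12 in BR200 and 9.17 ± 0.32 in BR100 (SD, n = 2 each), a log2 difference of 1.03 (limma adjusted p = 0.0163). FOSL1 was lower in BR200 by 0.83, CDC25A by 0.66, USP28 by 0.41 and SKP2 by 0.38, with adjusted p of 0.0158 to 0.0429, and E2F5 by 0.34 with an adjusted p just under the threshold. In limma's test between the clones 0 E2F targets and 0 CDK inhibitors passed, with 4 and 2 at an unadjusted p under 0.05.

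The genes most like each of the 10 were found by the root mean square difference of gene-centred log2 values over the 6 arrays. CCNE1 was closest to ZNF367 (0.0638), ARHGAP5-AS1 (0.113) and SLF1 (0.139). For CCNE2 they were PIR (0.175), CAV1 (0.185) and PTPRR (0.215), and for CCNA2 BCS1L (0.0347), KNOP1 (0.0395) and STAMBPL1 (0.0417). E2F8 was closest to RGS17 (0.0682), SYTL5 (0.0754) and SKP2 (0.0874), the last a gene of the ligase list above. E2F3 was closest to CMC2 (0.0403), and E2F1 to MYEF2 (0.0909). RB1 was closest to ABCC1 (0.0202), CCND3 to RPS15A (0.0215), CDKN1B to ZFX (0.0284) and CCND1 to SLC35D4 (0.0430). With 6 arrays in 3 variants such likeness is a description of levels.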

How the data were processed

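The authors deposited log2 expression, 1 value per probe set for 54675 probe sets, made with GCRMA per the submitters' processing notes; its version is not given in the sources used here. GCRMA corrects background, normalizes and summarizes probes, and gives low probe sets a shared lowest value of 2.23. Signal over background and the 6 arrays limit the precision. Genes were named from the platform annotation, checked by gene identifier against RefSeq GRCh38.p14 (41043 of 41097 probe sets with 1 gene matched, and no symbol differed). The 1801 probe sets with several genes and the 11777 with none were left out of the gene tests. The probe set with the highest mean stood for a gene. The R package limma 3.58.1 (R 4.3.3) fitted each gene by lmFit and eBayes with variant and kit as terms, on 2 residual and 2.33 prior degrees of freedom, and the fit was tested on simulated data. Probe sets were also fitted one by one. SDs are over the 2 arrays of a variant and so include the difference between kits.

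The 10 genes, the lists and the tests were chosen with earlier results of these data known. Named list genes were the 4 largest called rises and falls per comparison, from which examples were taken; others named (CDK4, CDK6, RBL2, EZH2, CDKN2D) were chosen after their values were seen. Likeness took the 3 nearest genes. Alternatives covered the kit block, the choice of probe set, filters, scaling, the variance prior and leaving out each array.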

Additional observations from a re-analysis of the deposited data

Results flagged for a closer look

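E2F1 differed between the resistant clones when their effects against wild type were compared directly: it was 0.55 higher in BR200 than in BR100 on the log2 scale (limma adjusted p = 0.0452). The call was lost in 9 of 14 alternatives, among them each of the 6 that left out an array (adjusted p 0.0815 to 0.227). It was higher by 0.64 on the Express arrays and by 0.47 on the One-Cycle arrays, with 1 array per clone and kit. The rank of the difference was 599 from the highest among 10370 genes.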

How the results depend on the processing

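Over the log2 changes of the 10 genes in the 3 comparisons, 417 values were recomputed under alternatives, of which 20 lost a call, 12 gained one and none reversed a called direction. The rises of CCNE1, CCNA2 and E2F8 against wild type kept their calls under all 14 alternatives, with CCNE1 at 1.67 to 3.74. The CCNE2 difference, whose test is not read, was 3.50 to 5.30 under them. Without the kit block (no replicate block; the block pairs arrays of 1 kit, as the labels give it), 4387 genes were called in BR100, 4100 in BR200 and 112 between the clones, with 35 list genes in BR200, and 0 list genes and 0 of the 10 between the clones (limma; 8 and 2 at an unadjusted p under 0.05). Quantile normalization brought the BR100 count of the 10 genes to 8, adding E2F1, RB1 and CDKN1B. Testing every gene without a filter brought the BR200 count to 4, losing E2F1, E2F3 and CDKN1B. The share of all genes called was not set beside these counts, so they are not read as a result about the 10 genes. Without a filter 15 genes, 0 list genes and 0 of the 10 were called between the clones (20 and 4 at an unadjusted p under 0.05), and with an intensity trend 1745, 12 and 2. Averaging probe sets left 3 list genes and 0 of the 10 (17 and 2 unadjusted), with the count over all genes not given here. With 1 array left out, the lone array of its variant being assumed to vary like the others, 0 to 61 genes, 0 list genes and 0 of the 10 passed between the clones (1953 to 3273, 9 to 19 and 1 to 4 unadjusted). The causes were not tested.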
